A study of Homo sapiens with 9 samples.

Results

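The replication-dependent histone genes are the clustered genes that encode the bulk of the histones H1, H2A, H2B, H3 and H4. They were selected by name, as the gene symbols of the older nomenclature that start with HIST1, HIST2 or HIST3 followed by a histone class, together with HIST4H4, and without symbols ending in P and digits. This gave 88 of the 59050 symbols in the count table. They comprised 8 genes of class H1, 23 of H2A, 25 of H2B, 16 of H3 and 16 of H4, and 68 of them had a HIST1 name, of which 66 lay on chromosome 6 and 2 pseudogenes, HIST1H2BPS3 and HIST1H2APS6, on chromosome 13. RefSeq listed 71 as protein coding and 17 as pseudogenes, which the rule on names did not remove.

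Bulk histones are made when DNA is copied, and their mRNAs are the main class of animal mRNAs that ends in a short stem-loop instead of a poly(A) tail. The stem-loop is bound by the protein SLBP, which acts in the processing, export, translation and decay of the mRNA. Several of these genes also give a longer, polyadenylated transcript, which has been described in cells that differentiate or leave the cell cycle. Protocols that prime cDNA synthesis with oligo-dT capture polyadenylated transcripts more readily than those ending at the stem-loop.

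RNA was measured in MEC1, an established line derived from chronic lymphocytic leukemia (CLL), a malignancy of mature B cells. The 3 groups of 3 samples were MEC1 cells in conventional 2D culture (2D), MEC1 cells printed in a hydrogel scaffold and harvested at day 7 (3D_7d), and the same kind of scaffold harvested at day 14 (3D_14d). No other treatment was given in the labels, and all groups carry the genome of this 1 line. RNA of the scaffolds was isolated with TRIzol, treated with DNase I and then extracted again with a column kit. The 2D cells went through the column kit alone, which also included a DNase step. Culture format and extraction therefore cannot be told apart in any comparison with 2D. The labels give no day of harvest for the 2D cells, so time in culture may differ as well and cannot be separated from these. All libraries were made from a low RNA input with an oligo-dT primed SMART-Seq kit.

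Total counts ranged from 54662799 to 85968686 per library. The level of a gene is given as CPM, its count on the usual per-library scale with library sizes scaled by TMM, and calls come from the edgeR quasi-likelihood test over all 13463 retained genes, with a Benjamini-Hochberg adjusted p of at most 0.05. The 7 B-cell markers were all retained, and their summed level was 3230 to 3264 CPM in 2D, 3731 to 4325 CPM at day 7 and 4399 to 5063 CPM at day 14. Markers of T and NK cells summed to at most 3.32 CPM in any library, those of monocytes to at most 1.04 CPM and those of fibroblasts to at most 8.11 CPM, most of it COL1A1. By a chi-square of counts over genes, the day 14 libraries differed most within their group, by 155 to 305 per gene with the 2 largest values both involving replicate 1, against 22.5 to 81.9 in the other groups. The labels number the replicates without saying whether they are separate cultures, so p-values measure the spread between these samples. In bulk RNA, fewer cells in S phase and less histone mRNA in each of them cannot be told apart.

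All 71 coding members carried a stem-loop in GRCh38, whose 16 bases began between 22 and 67 bases after the stop codon. There were 10 versions of it, and the most frequent was found in 41 genes. The 4 most frequent versions are shown, with 6 of the genes that carry them, because genes with the same stem-loop changed in both directions. The stem-loop is in capitals, with 5 bases of flank in lower case on each side, 5′ to 3′ on the coding strand.
HIST1H2AC: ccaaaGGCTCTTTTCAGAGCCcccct
HIST1H3F: ccaaaGGCTCTTTTCAGAGCCaccaa
HIST1H2BK: ccaaaGGCTCTTTTAAGAGCCactta
HIST1H4C: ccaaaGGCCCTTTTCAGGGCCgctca
HIST1H4H: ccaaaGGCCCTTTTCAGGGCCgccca
HIST1H4I: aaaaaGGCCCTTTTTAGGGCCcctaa
HIST1H2AC, at chr6:26124145-26139102 on the plus strand, and HIST1H3F, at chr6:26250195-26250605 on the minus strand, shared the version of 41 genes. HIST1H4C, at chr6:26103876-26104310 on the plus strand, and HIST1H4H, at chr6:26281055-26285534 on the minus strand, shared a version found in 10 genes. HIST1H2BK, at chr6:27146418-27146798 on the minus strand, carried another version found in 10 genes, and HIST1H4I, at chr6:27138588-27139881 on the plus strand, the version of 4 genes. The members were further divided by where their transcripts end in GENCODE release 44 or RefSeq, both on GRCh38: in 19 coding members an annotated transcript ended more than 100 bases past the stem-loop, and in 52 all ended at or near it. The counts do not separate the 2 kinds of transcript of 1 gene. For 35 members the exons used for counting stop before the end of the stem-loop, and for 30 of them they hold the coding sequence only. Among the 52, the counted exons ran 212 to 1761 bases past the stem-loop in HIST1H4I, HIST1H2BF, HIST1H4E, HIST1H2BG, HIST1H2BH, HIST1H3G, HIST1H2AG, HIST2H3A and HIST2H3C.

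Of the 88 members, 10 had no count in any library. Among these, HIST2H2AA3 and HIST2H2AA4, HIST2H3A and HIST2H3C, and HIST2H4A and HIST2H4B share sequence with each other, HIST1H2AK lies within exons of HIST1H2BN, and HIST1H3D lies within another annotated gene. The other two were HIST1H1PS2 and HIST2H3PS2. Whether the counting left out reads that match several genes was not tested. HIST1H4J and HIST1H4K, and HIST1H2AI and HIST1H2AJ, also share most of their sequence, and their counts are uncertain. The members known mainly from testis were at most 0.277 CPM in any library, with HIST1H1T at 8 counts in 1 day 7 library, 15 counts in 1 day 14 library and 0 in the others, and HIST1H2AA, HIST1H2BA and HIST3H3 at no more than 7 counts. A CPM above 1 in at least 3 samples was reached by 46 members, 44 of them coding. In 12 of the 46 no 3D library exceeded 1 CPM: HIST2H3D, HIST1H4A, HIST1H4B, HIST1H2AB, HIST1H2BF, HIST1H3F, HIST1H2APS4, HIST1H2BI, HIST1H2BL, HIST1H2BM, HIST1H2AL and HIST1H3I. These were retained through the 2D libraries alone and had to be lower in 3D, so the filter set the direction of their fold changes. HIST1H3A, HIST1H3B, HIST3H2BB, HIST1H4J and HIST2H2BD had fewer than 3 libraries above 1 CPM in 3D. They passed the filter only together with 2D libraries. Counts over the retained members therefore describe them and carry no further weight, and the counts of a fit without the filter stand beside them.

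The whole group took 0.0723% to 0.0905% of all counts in 2D, 0.0312% to 0.0594% at day 7 and 0.0452% to 0.0697% at day 14. In these shares of raw counts neither 3D time point overlapped with 2D. In summed CPM the members stood at 850, 703 and 647 in 2D, 598, 344 and 324 at day 7 and 789, 486 and 656 at day 14, so that day 14 overlapped with 2D on this scale. Members ending at the stem-loop summed to 760, 615 and 560 CPM in the 2D libraries, 437, 204 and 195 CPM at day 7, and 534, 293 and 502 CPM at day 14. Replicate 1 of day 7 thus stood well above the other 2 libraries of its group. These sums include HIST1H1C, which is listed as also polyadenylated, at 38.0 to 57.0 CPM in 2D, 25.7 to 65.1 CPM at day 7 and 47.9 to 100 CPM at day 14. Members with a transcript past the stem-loop summed to 85.5, 84.1 and 81.6 CPM in 2D, 158, 138 and 127 CPM at day 7, and 252, 191 and 150 CPM at day 14. For them all 6 of the 3D libraries were above all 2D libraries. Without the genes of this group that are listed as also polyadenylated, HIST1H2AC and HIST1H2BK among them, the other 12 summed to 31.2, 30.97 and 30.5 CPM in 2D, 29.9, 26.4 and 22.98 CPM at day 7 and 49.2, 39.2 and 29.7 CPM at day 14. These 12 were lower than 2D at day 7 and overlapped with 2D at day 14, so the higher sums rest on the listed genes. The share of member counts that came from genes with a transcript past the stem-loop was 10.1% to 12.6% in 2D, 26.4% to 40.2% at day 7 and 22.9% to 39.3% at day 14. For the 12 without the listed genes it was 3.67% to 4.71%, 5.01% to 7.69% and 4.53% to 8.07%.

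**Figure D1:**
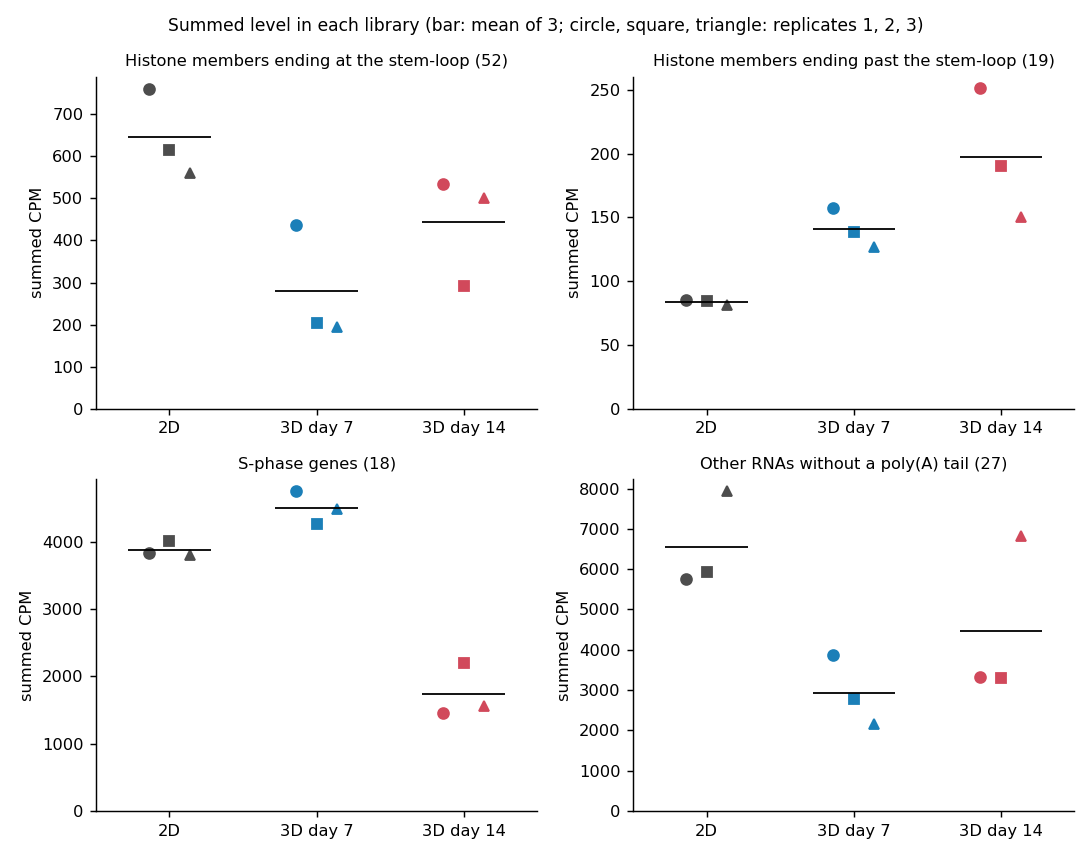
Summed level in CPM (y axis, linear from 0) of 4 groups of genes in each library, by culture condition (x axis); symbols are replicates 1, 2 and 3 and bars the mean of 3. Histone members ending at the stem-loop lie between 560 and 760 CPM in 2D and lower in 3D, those ending past it are higher in every 3D library, S-phase genes fall to between 1458 and 2193 CPM at day 14, and other RNAs without a poly(A) tail vary widely within day 14.

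HIST1H4C made up much of the first sum. This H4 gene had the highest level per exon length of all members, where its RPKM averaged 760 ± 176 for 2D, 361 ± 155 for day 7 and 677 ± 231 for day 14 (SD, n = 3 each), and it held 34.6% to 55.6% of all member counts. In CPM it stood at 417, 302 and 272 in 2D, at 235, 119 and 118 at day 7, and at 339, 180 and 365 at day 14. All day 7 libraries were below all 2D libraries, whereas 2 of the day 14 libraries lay within the 2D range and replicate 2 below it. HIST1H4C was down-regulated at day 7 (log2 fold change −1.07 ± 0.31 SE, edgeR adjusted p = 0.0131) and did not pass the threshold at day 14 (−0.17 ± 0.30, edgeR adjusted p = 0.698). The day 7 call did not pass without 3D_7d replicate 2 (−0.95) or without 3D_7d replicate 3 (−0.95), nor with the trend of fold change on gene length removed (−0.46), and its adjusted p ranged from 1.25e-06 to 0.146 over the alternatives. Without HIST1H4C and without the 8 genes listed as also polyadenylated, the remaining members summed to 322, 301 and 286 CPM in 2D, 170, 87.1 and 75.5 CPM at day 7 and 148, 107 and 120 CPM at day 14. These sums were lower in every 3D library than in every 2D library at both time points.

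The comparison of 3D_7d with 2D asks which histone genes differ after 7 days in the scaffold. Among the 46 retained members, 5 were up-regulated and 30 down-regulated, against 22.2% of all retained genes up-regulated and 21.2% down-regulated, or 43.4% called in either direction. The median log2 fold change of the retained members was −1.58, and that of all retained genes was −0.0039. The 12 members retained through 2D alone had a median of −3.64, and the other 34, with a library above 1 CPM in 2D and in 3D, had a median of −1.20, with 5 up and 19 down. Among the 19 were HIST1H3A, HIST1H3B, HIST3H2BB and HIST1H4J, which needed 2D libraries to pass the filter. Without any filter on low counts, 4 of 78 members with a count were up-regulated and 36 down-regulated, where the fit over all 51726 genes with a count called 5.02% up-regulated and 5.56% down-regulated. The groups did not overlap for 39 retained members, of which 5 were higher and 34 lower at day 7, against 32.2% and 32.4% of all retained genes. Leaving out any single 2D library left 34 members retained, since the 12 members that no 3D library held above 1 CPM then had fewer than 3 libraries above 1 CPM, and 13 to 15 were down-regulated.

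The linker histones H1 bind DNA where it enters and leaves the nucleosome. Of 8 H1 genes 4 were retained, and 3 of them fell at day 7 by edgeR, of which DESeq2 called 1. Among all retained genes, 21.2% fell at day 7. HIST1H1E stood at 66.3, 63.4 and 48.4 CPM in 2D, at 34.7, 11.2 and 8.08 CPM at day 7 and at 18.3, 12.3 and 22.5 CPM at day 14. Every 3D library was below every 2D library. It was down-regulated by a log2 fold change of −1.72 ± 0.43 at day 7 (edgeR adjusted p = 0.00637) and −1.75 ± 0.43 at day 14 (edgeR adjusted p = 0.00734). HIST1H1C, which also gives a polyadenylated transcript, stood at 57.0, 47.1 and 38.0 CPM in 2D, at 65.1, 25.7 and 27.3 CPM at day 7 and at 100, 47.9 and 50.8 CPM at day 14. Its groups overlapped, and neither change passed the threshold (−0.27 ± 0.35 and 0.49 ± 0.35). Without 3D_7d replicate 1 its day 7 value was −0.86 (edgeR adjusted p = 0.0495, against a range of 0.0495 to 0.894 over the alternatives). No H1 gene was up-regulated in any of the 3 comparisons by edgeR or DESeq2, nor at an unadjusted p under 0.05.

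Histones H2A and H2B form the dimers that flank the H3 and H4 core of the nucleosome. Of 23 H2A genes 12 were retained, and at day 7, 1 rose and 7 fell, against 22.2% and 21.2% of all retained genes. HIST1H2AC rose from 23.6, 21.8 and 22.7 CPM in 2D to 78.8, 69.9 and 62.4 CPM at day 7 and 136, 101 and 74.7 CPM at day 14. The 2D libraries lay close together and every 3D library was above them. Its log2 fold change was 1.63 ± 0.20 at day 7 (edgeR adjusted p = 6.02e-05), a 3.10-fold difference, and 2.19 ± 0.20 at day 14 (edgeR adjusted p = 1.55e-05), a 4.57-fold difference. HIST2H2AC, the second H2A gene by level per length, stood at 17.5, 14.3 and 11.6 CPM in 2D, 8.96, 3.39 and 2.65 CPM at day 7 and 10.5, 3.81 and 5.54 CPM at day 14. It was down-regulated at day 7 (−1.53 ± 0.45, edgeR adjusted p = 0.0144), a call that did not pass without 3D_7d replicate 2 (−1.36) or without 3D_7d replicate 3 (−1.28), and not at day 14 (−1.13 ± 0.44, edgeR adjusted p = 0.0617). At day 14 it passed in 10 of 20 alternatives, DESeq2 and the replicate block among them, with an adjusted p of 0.000119 to 0.186 over the edgeR and DESeq2 fits.

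The lowest fold changes of all members belonged to HIST1H2AB, which was chosen after its values were seen. It had 133, 233 and 186 counts in 2D, 0, 1 and 13 counts at day 7 and 2, 0 and 6 counts at day 14. Of the 6 scaffold libraries, 4 were at or under the floor of 3 counts, and the log2 fold changes of −4.75 ± 0.93 and −5.55 ± 0.99 depend on these few counts. HIST1H2AB was also retained through 2D alone and had to be lower in 3D.

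Of 25 H2B genes 14 were retained, and at day 7, 2 rose and 9 fell, against 22.2% and 21.2% of all retained genes. HIST1H2BK rose from 8.11, 7.79 and 6.40 CPM in 2D to 26.0, 20.2 and 21.5 CPM at day 7 and 27.2, 21.1 and 14.7 CPM at day 14. All 3D libraries were above all 2D libraries. The log2 fold change was 1.602 ± 0.23 at day 7 (edgeR adjusted p = 0.000178) and 1.50 ± 0.23 at day 14 (edgeR adjusted p = 0.000375). HIST1H2BG moved the other way, from 17.3, 15.0 and 22.6 CPM in 2D to 1.42, 1.33 and 0.796 CPM at day 7 and 1.68, 2.14 and 2.56 CPM at day 14. It fell by 3.95 ± 0.30 on the log2 scale at day 7 (edgeR adjusted p = 4.02e-06) and by 3.10 ± 0.29 at day 14 (edgeR adjusted p = 1.63e-05), the smallest p-values among the down-regulated members in both comparisons. HIST2H2BE stood at 4.06, 5.15 and 4.73 CPM in 2D, 6.59, 8.16 and 7.89 CPM at day 7 and 7.24, 9.60 and 10.3 CPM at day 14. It was up-regulated at day 7 (0.70 ± 0.22, edgeR adjusted p = 0.0221) and at day 14 (0.96 ± 0.22, edgeR adjusted p = 0.00511). The day 7 call did not pass without any 1 of the 2D replicates or without 3D_7d replicate 2 or 3, where it ranged from 0.57 to 0.73, and its adjusted p ranged from 0.00811 to 0.119 over the alternatives.

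HIST1H2BD, the second H2B gene by level per length, separated the time points. It stood at 6.20, 6.47 and 6.35 CPM in 2D, 6.76, 6.83 and 5.63 CPM at day 7 and 19.03, 9.35 and 12.6 CPM at day 14. Only the day 14 libraries were apart from 2D. The log2 fold change was 0.02 ± 0.25 at day 7 (edgeR adjusted p = 0.966) and 1.11 ± 0.25 at day 14 (edgeR adjusted p = 0.00446). HIST1H2BI and HIST1H2BM, H2B genes with a coding sequence of the same length, had 2D levels of 2.20 to 2.29 and 1.52 to 2.07 CPM and fell by 3.66 ± 0.55 and 3.85 ± 0.61 on the log2 scale at day 7, and by 4.78 ± 0.60 and 4.31 ± 0.63 at day 14. HIST1H2BI was at 3, 1 and 9 counts at day 14 and HIST1H2BM at 4, 8 and 2 counts, so these values rest on very few reads. Both genes were retained through 2D alone and had to be lower in 3D.

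Histones H3 and H4 form the core on which the nucleosome is assembled. Of 16 H3 genes 8 were retained. At day 7 none rose by edgeR, by DESeq2 or at an unadjusted p under 0.05, while 6 fell. Among all retained genes, 22.2% rose and 21.2% fell. HIST1H3F, first of the H3 genes by p-value, stood at 5.77, 5.61 and 4.16 CPM in 2D, 0.397, 0.182 and 0.0948 CPM at day 7 and 0.314, 0.190 and 0.395 CPM at day 14. The 2D libraries lay far above all 3D libraries. HIST1H3F fell by 4.50 ± 0.51 on the log2 scale at day 7 (edgeR adjusted p = 3.88e-05) and by 4.10 ± 0.50 at day 14 (edgeR adjusted p = 9.07e-05). HIST1H3I fell by 3.62 ± 0.47 and 3.07 ± 0.45, from 2.66 to 3.55 CPM in 2D to 0.207 to 0.303 CPM at day 7 and 0.247 to 0.592 CPM at day 14. HIST2H3D, an H3 gene of chromosome 1 that shares 42.6% of its sequence with other HIST2 copies, fell by 3.92 ± 0.64 and 5.01 ± 0.70, to no more than 8 counts in any 3D library. HIST1H3F, HIST1H3I and HIST2H3D were retained through 2D alone and had to be lower in 3D. HIST1H3H, which has an annotated transcript past the stem-loop and the highest level per length of the H3 genes beside HIST1H3F, stood at 8.85, 6.84 and 6.56 CPM in 2D, 6.11, 5.25 and 4.38 CPM at day 7 and 8.15, 8.48 and 5.60 CPM at day 14. It did not pass the threshold in either comparison (−0.50 ± 0.24, edgeR adjusted p = 0.116, and 0.00 to 2 decimals, edgeR adjusted p = 0.999).

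Of 16 H4 genes 8 were retained, and at day 7, 2 rose and 5 fell, against 22.2% and 21.2% of all retained genes. The 2 that rose were near the first share. All H4 genes encode nearly the same protein, yet their mRNAs moved apart. HIST1H4H rose from 5.03, 3.75 and 5.10 CPM in 2D to 8.78, 11.0 and 7.41 CPM at day 7 and 15.5, 11.4 and 9.45 CPM at day 14. Both 3D groups lay above 2D and overlapped with each other. The log2 fold change was 0.97 ± 0.25 at day 7 (edgeR adjusted p = 0.00723) and 1.39 ± 0.25 at day 14 (edgeR adjusted p = 0.00109), and the first did not pass without 2D replicate 2 (0.79). HIST1H4I rose from 6.45, 5.95 and 5.92 CPM to 11.6, 9.20 and 11.0 CPM at day 7 and 17.7, 10.6 and 9.13 CPM at day 14. On the log2 scale it differed by 0.80 ± 0.25 at day 7 (edgeR adjusted p = 0.0199) and 1.03 ± 0.25 at day 14 (edgeR adjusted p = 0.00629). The day 7 call did not pass without any 1 of the 2D replicates or without 3D_7d replicate 1 or 3 (0.70 to 0.80, with an adjusted p of 0.000853 to 0.0842 over the alternatives). HIST1H4E fell by 2.64 ± 0.36 at day 7 and by 2.22 ± 0.35 at day 14, and HIST1H4B fell by 4.22 ± 0.61 and 3.72 ± 0.58. HIST1H4B was at 129 to 168 counts in 2D and at 2 to 14 counts in 3D, so its fold is less certain than that of HIST1H4E, at 694 to 979 counts and 67 to 189 counts. HIST1H4B was also retained through 2D alone and had to be lower in 3D.

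**Figure D2:**
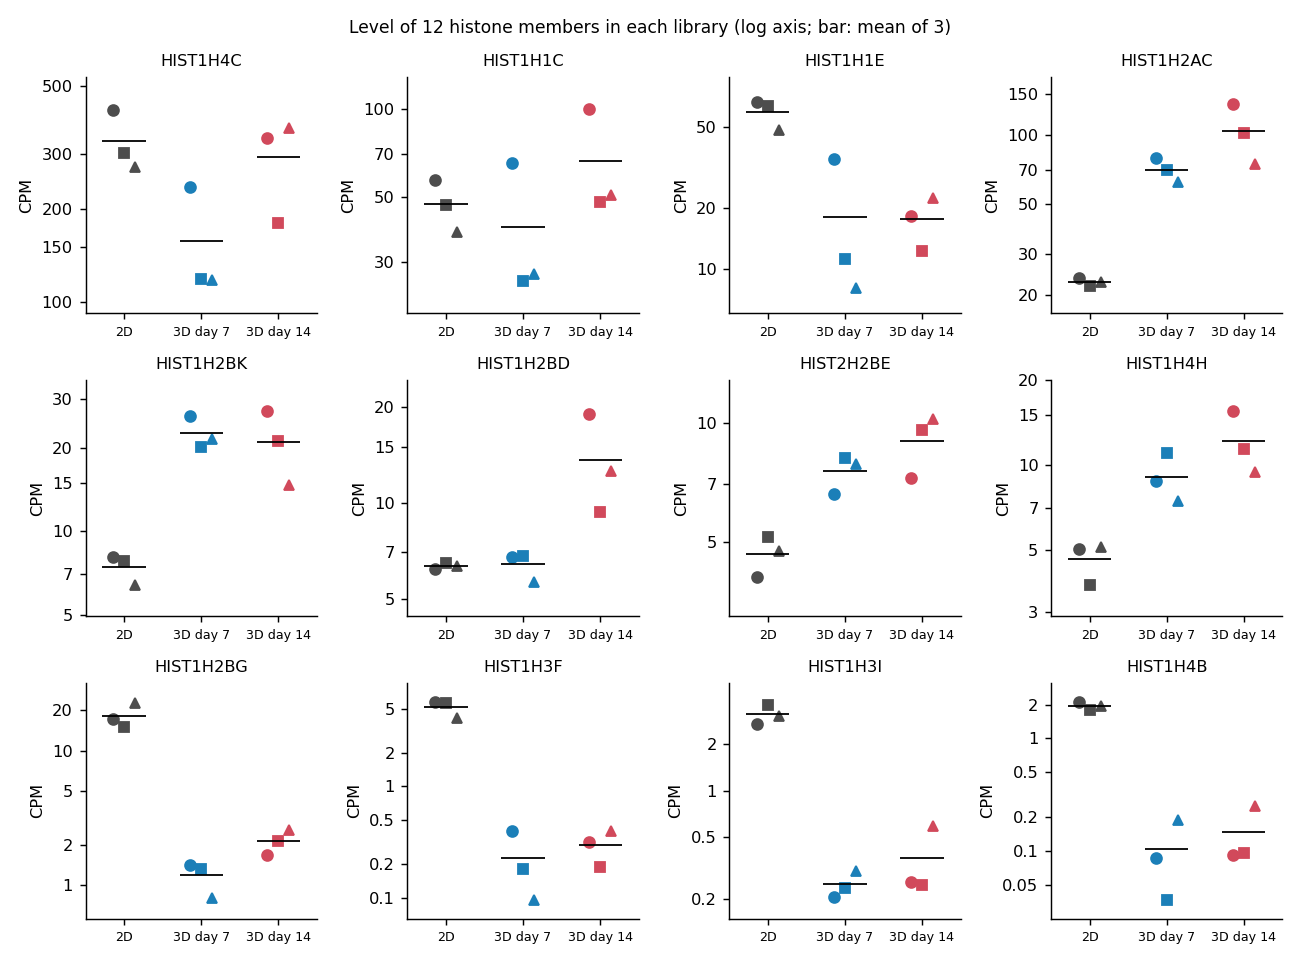
Level in CPM (y axis, logarithmic, with its own range in each panel) of 12 histone members in each library, by culture condition (x axis); circles, squares and triangles are replicates 1, 2 and 3 and bars the mean of 3. HIST1H2AC, HIST1H2BK, HIST2H2BE and HIST1H4H are higher in all 3D libraries than in all 2D libraries, HIST1H1E, HIST1H2BG, HIST1H3F, HIST1H3I and HIST1H4B are lower in all of them, HIST1H2BD is higher at day 14 alone, and the groups of HIST1H1C overlap.

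The comparison of 3D_14d with 2D asks the same after 14 days. Among the 46 retained members, 8 were up-regulated and 25 down-regulated, against 19% and 17.2% of all retained genes and 36.2% in either direction. Their median log2 fold change was −1.60, against 0.02 over all retained genes. The 12 members retained through 2D alone had a median of −3.62, and the other 34 had a median of −0.79, with 8 up and 14 down. Among the 14 were HIST1H3A and HIST1H3B, which needed 2D libraries to pass the filter. Without a filter, 8 of 78 members were up-regulated and 33 down-regulated, against 4.07% and 4.97% of all genes with a count. The groups did not overlap for 10 members that were higher and 30 that were lower at day 14, against 24.2% and 25.5% of all retained genes. Besides HIST1H2AC, HIST1H2BK, HIST2H2BE, HIST1H4H, HIST1H4I and HIST1H2BD, the up-regulated members were HIST3H2A and HIST1H3E, the latter chosen after its values were seen. HIST1H3E, an H3 gene, had a log2 fold change of 1.39 ± 0.33 (edgeR adjusted p = 0.0062). HIST3H2A, an H2A gene outside the large clusters, stood at 5.02, 5.03 and 4.73 CPM in 2D, 4.95, 4.01 and 4.32 CPM at day 7 and 14.3, 7.83 and 5.65 CPM at day 14. Its log2 fold change of 0.91 ± 0.30 (edgeR adjusted p = 0.0327) did not pass without any 1 of the 2D replicates (0.85 to 0.90) and was 0.46 without 3D_14d replicate 1, which is the library that stands apart most from its group over all genes. Leaving out a 2D library again left 34 members retained, of which 12 or 13 were down-regulated.

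The comparison of 3D_14d with 3D_7d, in which the extraction was the same, asks what changed between the 2 time points. Among the 46 retained members, 6 were up-regulated, against 14.5% of all retained genes, and 0 were down-regulated, against 13.6%, where 28.1% of all genes were called in either direction. Without a filter, 6 of 78 members were up-regulated and 1 down-regulated, against 3.35% and 3.49% of all genes with a count. The groups did not overlap for 5 members that were higher at day 14 and 0 that were lower, against 18.9% and 20.5% of all retained genes. At an unadjusted p under 0.05, 1 member was lower at day 14, HIST1H1B (−1.28, named after its value was seen), and DESeq2 called 7 higher and 0 lower. The 6 were HIST1H2AC, HIST3H2A and HIST1H2AE of class H2A, HIST1H2BD and HIST1H2BG of class H2B, and HIST1H4C. HIST1H2AE stood at 2.80, 2.66 and 2.41 CPM in 2D, 1.57, 1.20 and 1.88 CPM at day 7 and 8.11, 4.29 and 2.96 CPM at day 14. All day 14 libraries were above 2D and all day 7 libraries below it. Its log2 fold change between the time points was 1.72 ± 0.38 (edgeR adjusted p = 0.00565), and neither change against 2D passed the threshold (−0.76 ± 0.37 and 0.96 ± 0.36). Of the 6 calls, HIST1H2AE and HIST1H2BD passed in every fit that left out 1 library. HIST1H2AC passed in 1 of these 9 fits (log2 fold change 0.34 to 0.75), HIST1H2BG in 2 (0.66 to 1.01), HIST1H4C in 5 (0.72 to 1.32) and HIST3H2A in 6 (0.62 to 1.32). The count of 6 was 3 without 3D_14d replicate 1, 2 without 3D_7d replicate 2 or 3, and 8 without 3D_7d replicate 1. The median log2 fold change of the retained members, 0.25, was −0.20 with the trend on gene length removed.

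The members were then set out by transcript end, against the shares of all retained genes given above, 22.2% up and 21.2% down at day 7 and 19% and 17.2% at day 14. Of the 52 that end at the stem-loop, 31 were retained, of which 1 rose and 27 fell at day 7 (median log2 fold change −2.21), and 1 rose and 24 fell at day 14, with a median of −2.41. The riser was HIST1H4I in both cases, a gene whose counted exons ran 212 bases past the stem-loop. Of the 46 with a count, a fit without the filter gave 1 up and 31 down at day 7 and 1 up and 30 down at day 14. Members of this group retained through 2D alone had to be lower in 3D, so its medians follow in part from the filter. Without any 1 of the 2D libraries, 20 were retained, of which 12 or 13 fell at day 7 (median −1.68 to −1.62). At day 14, 11 or 12 of these fell (median −1.90 to −1.75). Of the 19 with an annotated transcript past the stem-loop, 13 were retained. At day 7, 4 of them rose and 3 fell, with a median of 0.02. At day 14, 7 rose and 1 fell, with a median of 0.96. Without the filter these counts were 3 up and 4 down, and 7 up and 2 down, of 16 with a count. The 3 that fell at day 7 were HIST1H2BC, HIST1H2BN and HIST3H2BB, and the 1 at day 14 was HIST1H2BN, so an annotated longer transcript did not go with a rise in every gene. The day 7 counts of this group, 4 and 3 of 13, were near the shares of all genes. HIST1H2BN and HIST3H2BB were named after their values were seen. The medians over single left-out libraries were −2.65 to −1.62 and −0.09 to 0.06 at day 7, and −2.44 to −1.75 and 0.60 to 1.17 at day 14. Scaling by total counts alone, which moved the median of all genes to −0.16 at day 7, gave −0.14 for the second group there. With the trend of fold change on gene length removed, the day 7 medians were −1.65 and 0.44.

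**Figure D3:**
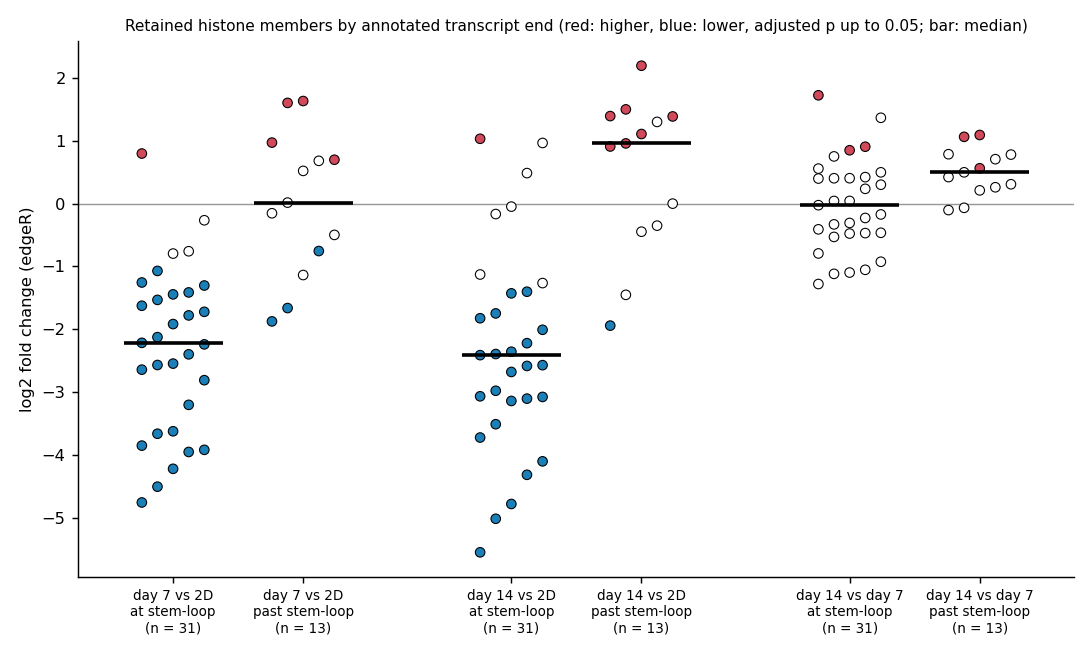
Log2 fold change (y axis) of each retained histone member in 3 comparisons (x axis), divided by whether all annotated transcripts end at the stem-loop (31 genes) or 1 ends more than 100 bases past it (13 genes); red and blue points passed the threshold, white points did not, and bars are medians. Against 2D the first group has medians of −2.21 and −2.41 and the second 0.02 and 0.96, while between the time points they are −0.03 and 0.50.

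A list of 8 members known to give polyadenylated mRNA as well was described separately. All 8 were retained, of which 3 rose and 1 fell at day 7 (22.2% and 21.2% of all retained genes), with a median of 0.27, and 4 rose and 0 fell at day 14 (19% and 17.2%), with a median of 1.03. By DESeq2 and at an unadjusted p under 0.05 the last count was also 0. Their summed level was 111, 100 and 89.2 CPM in 2D, 193, 138 and 131 CPM at day 7 and 302, 199 and 171 CPM at day 14. HIST1H2AC took up much of this rise, with means of 22.7 CPM in 2D, 70.4 CPM at day 7 and 104 CPM at day 14. At day 7 the higher sum thus rests largely on HIST1H2AC and does not describe the list as a whole. HIST1H2BC, the 1 that fell, stood at 9.38, 8.53 and 7.48 CPM in 2D, 5.88, 4.44 and 4.70 CPM at day 7 and 6.93, 5.31 and 6.37 CPM at day 14. Its log2 fold change of −0.75 ± 0.22 at day 7 (edgeR adjusted p = 0.0152) did not pass without 2D replicate 1 (−0.72) or 3D_7d replicate 2 (−0.71) and was −0.31 with the length trend removed. HIST1H2BJ, which had a 2D level of 1.03 to 1.08 CPM, ranged from 0.796 to 2.54 CPM at day 7 and from 1.18 to 4.62 CPM at day 14 and did not pass the threshold (0.52 ± 0.53 and 1.30 ± 0.53). HIST4H4, the single gene of chromosome 12, stood at 1.83, 2.30 and 2.45 CPM in 2D and 1.17, 0.983 and 0.834 CPM at day 7. Its log2 fold change of −1.14 ± 0.45 was just outside the threshold (edgeR adjusted p = 0.056), inside it with DESeq2 and without any 1 of the 3D_14d replicates, and −0.35 ± 0.44 at day 14.

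H2A and H2B genes often lie head to head and share the sequence between them as promoter. There were 12 such pairs with start codons at most 600 bases apart, and 8 had both genes retained. In 3 of the 8 the 2 genes had opposite calls at day 7, and in 1 at day 14. How often other neighbouring genes had opposite calls was not counted. The day 7 calls of HIST2H2BE, HIST2H2AC and HIST1H2BC passed in 4, 7 and 7 of the 9 fits that left out 1 library. The sequences between the RefSeq start sites of these 3 pairs are shown because 1 stretch of DNA lies upstream of both genes. They are given on the plus strand of GRCh38, in lower case, with capitals for matches on either strand to the TATA box letters TATAAA, to the CCAAT box and to the octamer, whose letters are ATGCAAAT. Matches to TATAAA on opposite strands can overlap.
HIST1H2BK and HIST1H2AH, chr6:27146859-27147105: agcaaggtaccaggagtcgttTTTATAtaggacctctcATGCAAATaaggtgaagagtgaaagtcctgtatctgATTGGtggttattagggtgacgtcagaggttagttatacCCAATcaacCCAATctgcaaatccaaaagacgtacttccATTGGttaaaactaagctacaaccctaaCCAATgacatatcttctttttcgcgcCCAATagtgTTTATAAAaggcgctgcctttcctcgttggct
HIST1H2BC and HIST1H2AC, chr6:26123927-26124171: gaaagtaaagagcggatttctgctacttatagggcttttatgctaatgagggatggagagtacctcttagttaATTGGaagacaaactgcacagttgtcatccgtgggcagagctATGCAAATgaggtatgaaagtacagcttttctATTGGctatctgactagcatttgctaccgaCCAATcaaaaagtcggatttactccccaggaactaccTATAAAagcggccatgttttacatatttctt
HIST2H2BE and HIST2H2AC, chr1:149886683-149886917: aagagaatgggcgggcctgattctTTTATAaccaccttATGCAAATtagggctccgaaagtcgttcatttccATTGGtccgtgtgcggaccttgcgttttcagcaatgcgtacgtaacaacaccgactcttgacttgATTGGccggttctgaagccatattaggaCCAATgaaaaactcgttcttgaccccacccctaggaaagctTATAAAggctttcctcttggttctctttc
The first stretch of 247 bases held 6 matches to CCAAT, the second of 245 bases 3 and the third of 235 bases 3, and each held 1 octamer.

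Between the genes of a pair the ratio of CPM in the same library was followed. HIST1H2BK to HIST1H2AH was 0.502, 0.539 and 0.453 in 2D, 5.26, 12.9 and 18.9 at day 7 and 12.2, 24.8 and 6.65 at day 14. The gene with the lower count in every 2D library was thus the gene with the higher count in every 3D library. HIST1H2AH, shown as the partner, fell by 2.55 ± 0.49 on the log2 scale at day 7 (edgeR adjusted p = 0.00133) and by 3.08 ± 0.51 at day 14 (edgeR adjusted p = 0.000644). Both genes were counted over coding sequences of nearly the same length, 381 and 387 bases. HIST1H2BC to HIST1H2AC was 0.397, 0.3903 and 0.329 in 2D, 0.0746, 0.0636 and 0.0754 at day 7 and 0.0511, 0.0524 and 0.0852 at day 14. HIST2H2BE to HIST2H2AC was 0.232, 0.359 and 0.407 in 2D, 0.736, 2.41 and 2.97 at day 7 and 0.689, 2.52 and 1.85 at day 14. These 3 pairs were chosen for their opposite calls, so that the separation of their ratios follows from the choice. Of the other pairs with both genes retained, HIST1H2BL to HIST1H2AI overlapped between the groups, with 0.438 to 0.538 in 2D, 0.142 to 0.588 at day 7 and 0.0440 to 0.684 at day 14. For HIST1H2BG and HIST1H2AE, chosen after their values were seen, the ratio went from 5.64 to 9.37 in 2D to 0.424 to 1.11 at day 7 and 0.207 to 0.867 at day 14.

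**Figure D4:**
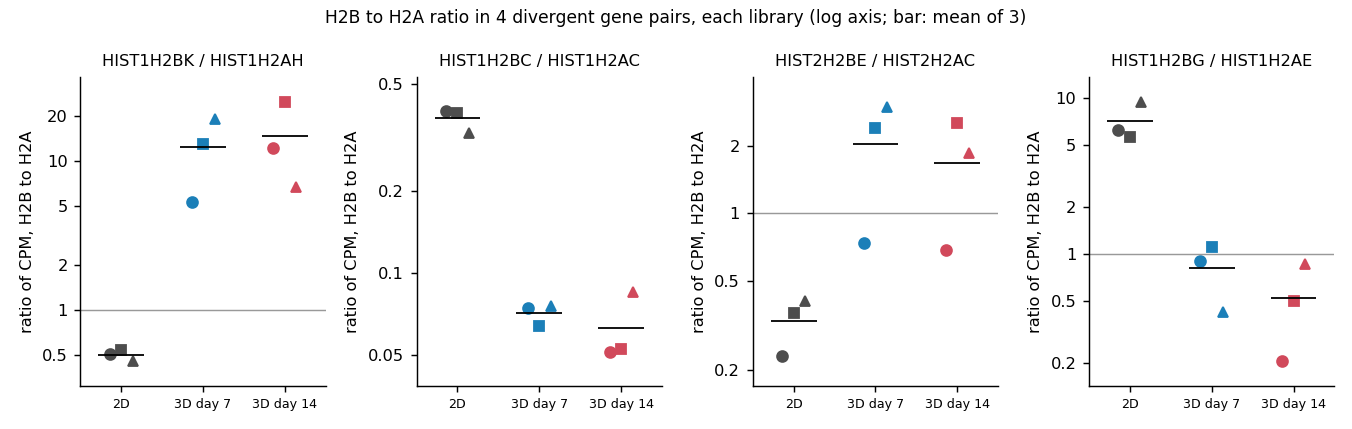
Ratio of the CPM of the H2B gene to that of its H2A neighbour (y axis, logarithmic, with its own range in each panel) in each library, by culture condition (x axis), for 4 divergent gene pairs; the grey line, in the panels that reach it, marks a ratio of 1 and bars are means of 3. HIST1H2BK to HIST1H2AH rises from about 0.5 to above 5 in every 3D library, and HIST1H2BG to HIST1H2AE falls from above 5 to at most 1.11.

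Promoters of 66 coding members were matched by symbol in RefSeq (GRCh38.p14), as windows from 250 bases before to 50 after the start. CCAAT on either strand was found in 84.8% of them against 35.7% of 27305 promoters, TATAAA in 66.7% against 12%, and the octamer ATGCAAAT in 37.9% against 1.8%. By class, CCAAT was found in all H1, H2A, H2B and H3 promoters but in 3 of 13 H4 promoters (23.1%), below the share of all promoters. The octamer was found in 11 of 16 H2A and 14 of 18 H2B promoters and in 0 of 6 H1, 0 of 13 H3 and 0 of 13 H4 promoters. The motif AAACACA, known from H1 genes, was found in all 6 H1 promoters and in 5.76% of all promoters. By transcript end, the octamer was found in 42.1% of the 19 promoters of members with a transcript past the stem-loop and in 36.2% of the 47 others, CCAAT in 78.9% and 87.2%, and TATAAA in 57.9% and 70.2%.

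The genes that make, process and remove histone mRNA were described from a list of 18, all of them retained. At day 7, 8 rose and 3 fell, against 22.2% and 21.2% of all retained genes, with a median of 0.41. At day 14, 3 rose and 3 fell, near the 19% and 17.2% of all retained genes, with a median of 0.10. NPAT, which activates histone gene transcription at the histone locus body, stood at 39.4, 41.9 and 48.3 CPM in 2D, 35.4, 28.8 and 29.6 CPM at day 7 and 21.5, 26.7 and 30.7 CPM at day 14, and fell in both comparisons (−0.46 ± 0.17 and −0.71 ± 0.17, edgeR adjusted p = 0.0435 and 0.00646). CASP8AP2, also called FLASH, which acts at the same body and in 3′ processing, fell from 42.0, 43.2 and 41.2 CPM to 14.7, 10.03 and 11.9 CPM at day 7 and 9.98, 10.6 and 14.7 CPM at day 14. Its log2 fold changes were −1.79 ± 0.20 (edgeR adjusted p = 3.32e-05) and −1.84 ± 0.20 (edgeR adjusted p = 3.97e-05). SLBP, the stem-loop binding protein, rose at day 7 (0.35 ± 0.13, edgeR adjusted p = 0.0456) and was −0.29 ± 0.13 at day 14 (edgeR adjusted p = 0.105). NCBP1, a subunit of the cap-binding complex, and CPSF3, the nuclease that cuts at the 3′ end, rose at day 7 by 1.54 ± 0.17 and 1.03 ± 0.15 on the log2 scale and did not pass the threshold at day 14 (0.09 ± 0.17 and 0.13 ± 0.14). UPF1 and LSM1, which act in decay, rose at day 14 by 1.13 ± 0.20 and 0.78 ± 0.19.

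Genes of S phase, when histone mRNA is made, were described at both time points. Of 18, 7 rose and 3 fell at day 7, with a median of 0.34, whereas at day 14 all 18 fell, with a median of −1.23, and 17 of 18 were lower at day 14 than at day 7. Their summed level was 3807 to 4003 CPM in 2D, 4267 to 4759 CPM at day 7 and 1458 to 2193 CPM at day 14. The shares of all retained genes were 22.2% up and 21.2% down at day 7 and 19% and 17.2% at day 14. MCM5 and MCM4, subunits of the replicative helicase, rose at day 7 by 0.92 ± 0.15 and 1.11 ± 0.24, while CDT1 and GINS2, which act in loading and activating it, fell by 2.11 ± 0.29 and 0.63 ± 0.13. CDC6, a loading factor, fell by 1.70 ± 0.16 at day 14. Histone chaperones, of which 18 were listed and retained, gave 6 up and 5 down at day 7, near the same shares of all genes, and 0 up and 10 down at day 14, where 2 were higher at an unadjusted p under 0.05 and by DESeq2. NAP1L1, a carrier of H2A and H2B, fell by 1.09 ± 0.15 and 1.35 ± 0.15, NASP, a carrier of H1 and of H3 with H4, fell by 0.34 ± 0.13 and 1.11 ± 0.13, and CHAF1B, a subunit of the factor that assembles nucleosomes behind the fork, rose by 0.71 ± 0.14 at day 7 and fell by 1.18 ± 0.15 at day 14.

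Replacement and variant histones are encoded outside the clusters and made mostly, though not all of them only, from polyadenylated mRNA. Of 11, 10 were retained, of which 1 rose and 4 fell at day 7 (22.2% and 21.2% of all retained genes) and 3 rose and 2 fell at day 14 (19% and 17.2%), the latter near the shares of all genes. H2AFZ, the H2A variant H2A.Z, stood at 1350 to 1594 CPM in 2D and fell at day 7 (−0.73 ± 0.19, edgeR adjusted p = 0.00785). H3F3B, 1 of the genes for H3.3, did not pass the threshold (0.20 ± 0.14 and 0.18 ± 0.14), and neither did H2AFX at day 7 (edgeR adjusted p = 0.994), which fell by 0.49 ± 0.18 at day 14. H1FX, a linker histone variant, stood at 22.5, 19.3 and 10.8 CPM in 2D, 10.6, 4.92 and 6.24 CPM at day 7 and 57.0, 51.2 and 57.5 CPM at day 14. It fell at day 7 (−1.27 ± 0.29, edgeR adjusted p = 0.0041) and rose at day 14 (1.66 ± 0.29, edgeR adjusted p = 0.00101). H1F0, the linker histone of cells that stop dividing, was 0.02 ± 0.30 at day 7 and rose at day 14 (1.31 ± 0.30, edgeR adjusted p = 0.00532). CENPA, the H3 variant of centromeres, fell by 1.39 ± 0.20 and 1.31 ± 0.20.

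**Figure D5:**
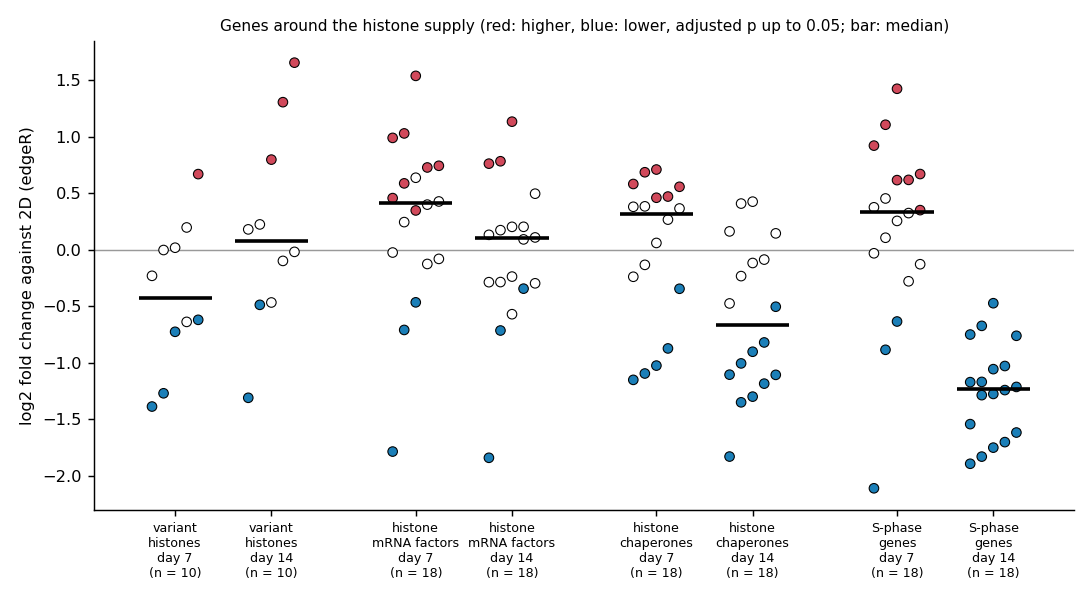
Log2 fold change against 2D (y axis) at day 7 and day 14 of each retained gene of 4 lists (x axis): variant histones (10), factors of histone mRNA (18), histone chaperones (18) and S-phase genes (18); red and blue points passed the threshold, white points did not, and bars are medians. S-phase genes have a median of 0.34 at day 7 and all lie below 0 at day 14, with a median of −1.23.

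Other RNAs that lack a canonical poly(A) tail were listed to set beside the histones. Of 27, 8 had no count and 5 were retained, of which 0 rose and 4 fell at day 7 (22.2% and 21.2% of all retained genes), and 1 rose and 1 fell at day 14 (19% and 17.2%). By DESeq2 and at an unadjusted p under 0.05 the count of 0 was the same. MALAT1, which makes up nearly all of their summed level, stood at 5613, 5801 and 7716 CPM in 2D, 3776, 2705 and 2095 CPM at day 7 and 3049, 3205 and 6619 CPM at day 14. It fell at day 7 (−1.16 ± 0.29, edgeR adjusted p = 0.00674) and was −0.57 ± 0.29 at day 14 (edgeR adjusted p = 0.141), where replicate 3 lay in the 2D range. RNU5A-1, a spliceosomal RNA, was at 4.06 to 5.76 CPM in 2D and at no more than 5 counts in any 3D library. SCARNA9, a guide RNA of Cajal bodies, fell at day 7 (−2.39 ± 0.49, edgeR adjusted p = 0.00178), while RN7SL1, the RNA of the signal recognition particle, rose at day 14 (3.41 ± 0.49, edgeR adjusted p = 0.000291). Extraction, capture of RNAs without a poly(A) tail and culture moved together between 2D and 3D, and their parts in the histone results cannot be told apart.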

How the data were processed

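RNA of 9 MEC1 samples was sequenced as single reads. The deposited table holds raw counts per gene symbol, which the authors made, per the submitters' processing notes, with Trimmomatic 0.39, STAR 2.5.3a and featureCounts 1.6.4 on GRCh38. The strand setting and the handling of reads that match several genes were not given in the sources used here. Counts were tested with edgeR 4.0.16 in R 4.3.3 by the quasi-likelihood test in 1 model over the 3 groups, after TMM scaling, for the 13463 genes in which 3 or more samples exceeded a CPM of 1, with Benjamini-Hochberg adjustment over all of them and a threshold of 0.05. Values after ± are standard errors for log2 fold changes and SD for levels. Total counts were 54662799 to 85968686 per library.

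Stem-loops were searched within 150 bases after the stop codon, and transcript ends were read from GENCODE release 44 and RefSeq. A floor of 3 counts covers counting error only. Genes were named by rule: per comparison and direction, the 5 called members lowest in p, the 2 members of each class highest in mean RPKM, the listed polyadenylated and testis members and HIST4H4, and of each other list the 2 called genes lowest in p, with SLBP, NPAT, CASP8AP2, H2AFX, H2AFZ, H3F3B, H1F0, H1FX and MALAT1 always. The members and lists were chosen with earlier results of these data known. Alternatives were other scalings, filters, DESeq2 1.42.0, a replicate block, a gene-length trend and leaving out each library. Simulated data for 3D_7d against 2D held 13159 genes, of which 197 were changed. Of genes changed by 1 on the log2 scale 64.3% were recovered, and of those changed by 2, 88.9%. Of the calls, 7.36% fell on unchanged genes. In the data 43.4% of genes were called at day 7, a much larger part, so these rates need not hold for its calls. Samples with the same replicate number had correlations of −0.1 to 0.185. Between 2D and 3D_14d these were 0.0931 to 0.185, above the −0.135 to 0.0399 of samples with different numbers. In the comparisons with 3D_7d they were −0.1 to −0.00522. Whether the numbers pair the samples is not known.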

Additional observations from a re-analysis of the deposited data

Results flagged for a closer look

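For 6 of the 46 retained members the change against 2D differed between the time points by the direct test of 3D_14d against 3D_7d. All 6 were called up, near the share of 14.5% of all retained genes, where 13.6% were called down. The difference was 1.72 on the log2 scale for HIST1H2AE, 1.09 for HIST1H2BD, 1.06 for HIST3H2A, 0.90 for HIST1H4C, 0.85 for HIST1H2BG and 0.56 for HIST1H2AC. All were higher at day 14, where the values of HIST1H4C and HIST1H2AC overlapped between the groups. HIST1H2AC and HIST1H2BG passed in only 1 and 2 of the 9 fits that left out 1 library. With 3 samples a group, Dixon's test for an outlying library was not run.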

How the results depend on the processing

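Against 2D, the members' counts of calls stayed within 1.5 times under other scalings, filters and DESeq2, except that 2 rather than 5 rose at day 7 where calls also had to reach a log2 fold change of 1 in size. Leaving out single libraries gave 2 to 5 up, 13 to 32 down and a median of −2.11 to −1.22 at day 7, and 7 to 10 up, 12 to 26 down and a median of −1.92 to −0.75 at day 14. The lowest down counts came without a 2D library, where by construction fewer members were retained. The day 14 median was −1.78 with total counts alone, −1.40 without a filter, and −1.75 without PS-named members or without members sharing exonic bases. Between the time points the up count was 2 to 8, the down count 0 to 2 and the median 0.07 to 0.56 over left-out libraries. The up count was 3 with total counts alone, with the 6 samples of the contrast or with that limit on size, and 2 with the length trend removed. The down count was 1 without a filter and 3 with the length trend removed, where the median turned to −0.20. The shares of all counts were 0.0742% to 0.0832% in 2D, 0.0323% to 0.0464% at day 7 and 0.0561% to 0.0683% at day 14 over left-out libraries. The cause was not tested for any of these.

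The labels do not say whether the replicate numbers pair samples across groups. With a replicate block 5 rose and 29 fell at day 7, 8 rose and 27 fell at day 14, and 7 rose and 0 fell between the time points. With the block and the length trend removed, 1 rose and 3 fell between the time points and the median turned to −0.15.

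The following values changed sign. At day 7, HIST1H2BD was −0.14 with total counts alone, −0.027 with TMM without immunoglobulin, ribosomal protein and mitochondrial genes, −0.0029 with 6 samples and −0.067 to 0.058 over left-out libraries. With the length trend removed, without and with the block, HIST3H2A was 0.26 and 0.26 and HIST1H1C 0.25 and 0.15. HIST1H2BJ was −0.093 to 0.78 over left-out libraries. At day 14, total counts alone gave list medians of −0.12 for variant histones and −0.10 for factors of histone mRNA, and the former ranged from −0.028 to 0.14 over left-out libraries. HIST1H3H was 0.00057 with DESeq2 size factors, 0.00086 with DESeq2, 0.12 without 2D replicate 1 and 0.17 without 3D_14d replicate 3. Left-out libraries gave −0.35 to 0.093 for HIST1H4C and −0.88 to 0.0032 for HIST4H4.

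Between the time points, the length trend without and with the block gave −0.016 and −0.014 for HIST1H4H, −0.13 and −0.15 for HIST1H4I, −0.21 and −0.13 for HIST1H3F, −0.046 and −0.11 for HIST1H3I, −0.094 and −0.098 for HIST1H4B, −0.27 and −0.16 for HIST2H2AC, and −0.19 and −0.18 for HIST1H2BC. HIST1H1E was 0.0046 with DESeq2 size factors, 0.0093 with the reduced TMM, 0.0057 with DESeq2, 0.011 with 6 samples, 0.19 with the block and −0.34 to 0.88 over left-out libraries. Left-out libraries also turned HIST1H2BK (−0.32 to 0.10), HIST1H4I (−0.088 to 0.42), HIST1H4B (−0.14 to 1.25), HIST1H2BM (−1.11 to 0.12) and HIST2H2AC (−0.079 to 1.14).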
